A study of Mus musculus with 12 samples.

Results

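Imprinted genes are described here across 12 RNA-seq libraries from the ventricular zone of the mouse dorsal cortex, the layer of dividing radial glia that lines the lateral ventricle. A list of 40 gene symbols was matched to the gene identifiers of the deposited tables, and all 40 were found among 55487 identifiers. By textbook knowledge of mouse imprinting, 20 of the 40 are usually expressed from the paternal allele and 10 from the maternal allele, while for the other 10 the expressed allele depends on tissue, isoform or cell type. The libraries do not separate the parental alleles, so the values are the sum of both, and the allele classes are background and not a measurement.

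The study used mice with a conditional knock-in at ROSA26, in which a stop sequence flanked by loxP sites precedes p18, a P2A peptide and the orange fluorescent protein mKO2. p18 is the cyclin-dependent kinase inhibitor encoded by Cdkn2c. Tamoxifen was injected intraperitoneally in all 4 groups to start Cre recombination, and no source used here names the promoter that drives Cre. The tissue was taken by laser microdissection at embryonic day E13.5 or E16.5. There were 3 libraries each of E13.5 p18mKO2- (genotype normal), E13.5 p18mKO2+ (p18 over-expressing), E16.5 p18mKO2- (normal) and E16.5 p18mKO2+ (over-expressing), and the normal groups had received tamoxifen too. Whether replicates are separate embryos is not said in the labels, and p-values therefore reflect only the variation among these libraries, part of which may be technical.

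Genomic imprinting is the expression of a gene from 1 parental allele, set by DNA methylation placed in the egg or the sperm and kept through the divisions of the embryo. Imprinted genes lie in clusters, each under an imprinting control region, and long noncoding RNAs of a cluster often silence its neighbours on the same chromosome. Many of these genes act on growth, on placenta and on the developing brain, where Plagl1, Grb10, Dlk1, Peg3 and the genes of the Prader-Willi region are known for their expression. During early development the zinc finger protein ZFP57 binds the methylated hexamer TGCCGC at imprinting control regions and holds the methylation there.

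Promoter sequences are shown for members whose levels differed between groups in the results that follow. RefSeq promoter windows (build GRCm38.p6) were matched by symbol for 33 of the 40 members, and the 250 bases before each start were searched for TGCCGC on both strands, on which the reverse strand reads GCGGCA. No other motif was searched. The hexamer occurred in 7 of 48 member windows (14.6%), against 8.68% of the 32851 windows of all genes. It was found at 6 members, Plagl1, Mest, Mcts2, Zim1, Meg3 and Copg2. Mest entered the 7 with windows that overlap almost in full. Member windows also held more CG dinucleotides, with a median of 10 against 6 over all windows, and the hexamer contains CG. Whether the member share exceeded that of all windows was not tested. A match says only that these letters are in the window and says nothing of binding. In the first 3 sequences, printed 5′ to 3′ on the plus strand, the strand of these genes, capitals mark the hexamer, and bases annotated as untranslated region were removed from the end. The fourth is the stretch between the RefSeq starts of Peg3 on the minus strand and Usp29 on the plus strand, read on the plus strand, where capitals mark CG dinucleotides. It holds 5 CG and no hexamer. The Plagl1 and Mest windows precede a start inside the annotated gene span, and the Mcts2 window lies within H13. Annotated Plagl1 exons covered up to 141 of the 250 bases of the Plagl1 window. Only 44 bases of untranslated region were cut from it, so part of the printed stretch is annotated exon.
Plagl1, chr10:13090582-13090787: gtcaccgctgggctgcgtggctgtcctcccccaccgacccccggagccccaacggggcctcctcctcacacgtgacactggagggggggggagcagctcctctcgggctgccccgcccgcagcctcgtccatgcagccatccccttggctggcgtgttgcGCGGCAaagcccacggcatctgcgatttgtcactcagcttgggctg
Mest, chr6:30737800-30738049: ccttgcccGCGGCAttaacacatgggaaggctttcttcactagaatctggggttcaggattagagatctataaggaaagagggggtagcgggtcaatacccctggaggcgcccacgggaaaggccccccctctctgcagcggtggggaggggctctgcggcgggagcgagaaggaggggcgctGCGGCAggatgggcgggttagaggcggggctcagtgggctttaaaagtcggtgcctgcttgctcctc
Mcts2, chr2:152686898-152687034: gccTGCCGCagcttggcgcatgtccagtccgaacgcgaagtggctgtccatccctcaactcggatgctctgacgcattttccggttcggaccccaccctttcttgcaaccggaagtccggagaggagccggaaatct
Peg3-Usp29, chr7:6730420-6730582: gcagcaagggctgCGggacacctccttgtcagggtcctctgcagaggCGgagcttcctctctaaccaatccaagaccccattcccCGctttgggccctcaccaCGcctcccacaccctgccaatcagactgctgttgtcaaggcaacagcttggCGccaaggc

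Depth was similar in all libraries, with 17.1 to 21.84 M estimated counts each. A single ribosomal RNA gene took 1.79% to 13.58% of the counts. At E16.5 its share was 13.58%, 8.4% and 6.28% in p18mKO2- and 2.75%, 1.79% and 3.97% in p18mKO2+, without overlap. At E13.5 it was 5.32%, 8.01% and 8.8% in p18mKO2- and 4.41%, 6.64% and 2.81% in p18mKO2+. The part of this share in the p18 differences was not tested. Libraries of 1 group correlated at 0.935 to 0.983 (Pearson's r across genes, which are not independent replicates). Replicate 3 of E13.5 p18mKO2+ and replicate 3 of E16.5 p18mKO2+ each held both Xist and Y-linked transcripts, and results are given without these 2 libraries where a call depends on them. Sex was uneven over the groups: all 3 E13.5 p18mKO2- libraries held Xist only, E13.5 p18mKO2+ had 1 library with Xist only, 1 with Y-linked transcripts only and 1 with both, E16.5 p18mKO2- had 2 with Xist only and 1 with Y-linked only, and E16.5 p18mKO2+ had 2 with Y-linked only and 1 with both. Of the 3 E13.5 p18mKO2+ libraries replicate 1 is the one with Xist only, too few for a comparison within 1 sex, and values from a fit with Y-linked expression as a term, added after the data were seen, are given where it lost a call. Cdkn2c, which encodes p18, did not mark the groups in counts: it ran from 17.7 to 27.6 CPM in E13.5 p18mKO2-, 21.6 to 32.6 in E13.5 p18mKO2+, 15.1 to 31.8 in E16.5 p18mKO2- and 25.8 to 30.95 in E16.5 p18mKO2+, and was not called at either stage (log2 fold change 0.14 ± 0.26, edgeR adjusted p = 0.798 at E13.5, and 0.32 ± 0.26, adjusted p = 1.0 at E16.5, SE). The deposited counts of Cdkn2c therefore did not check the labels, and every p18 difference given here is between groups as labelled. The radial glia of the ventricular zone were present by their markers: all 10 radial glia markers were detected in every library. The summed radial glia markers lay at 2564 to 2921 CPM in E13.5 p18mKO2-, 1594 to 2215 in E13.5 p18mKO2+, 1366 to 1881 in E16.5 p18mKO2- and 1606 to 1771 in E16.5 p18mKO2+ (CPM, counts scaled to a common library size). Neurons were present as well: the summed 10 neuron markers ran from 2275 to 2769, 4965 to 6079, 7384 to 10120 and 7100 to 7881 CPM in the same order of groups.

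Measured per transcript length, in TPM (reads scaled by transcript length and by depth), the 40 members covered the range from abundant to nearly silent. Nnat, which encodes the small membrane protein neuronatin, had the highest mean level at 2178 TPM over the 12 libraries, followed by Gnas, which encodes the stimulatory G protein alpha subunit, at 1265 TPM. The long noncoding RNAs Meg3 (230.4 TPM) and Rian (210.8 TPM) came next and were the most abundant maternally expressed members. Plagl1 (150.6 TPM), Mest (140.4 TPM), Snrpn (133.1 TPM), Grb10 (127.2 TPM) and Inpp5f (125.7 TPM) formed a close series whose ranges over the libraries overlapped. At the other end stood Dio3 (0.714 TPM), Ascl2 (0.147 TPM), Slc22a18 (0.129 TPM), Rtl1 (0.0783 TPM) and Phlda2 (0.055 TPM). Phlda2, Slc22a18 and Ascl2, maternally expressed genes known for their action in placenta or in other tissues, held 4, 23 and 23 counts over all 12 libraries together and were too low to be tested. The other 37 members passed the filter on low counts, 20 paternally expressed, 7 maternally expressed and 10 context-dependent.

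**Figure D1:**
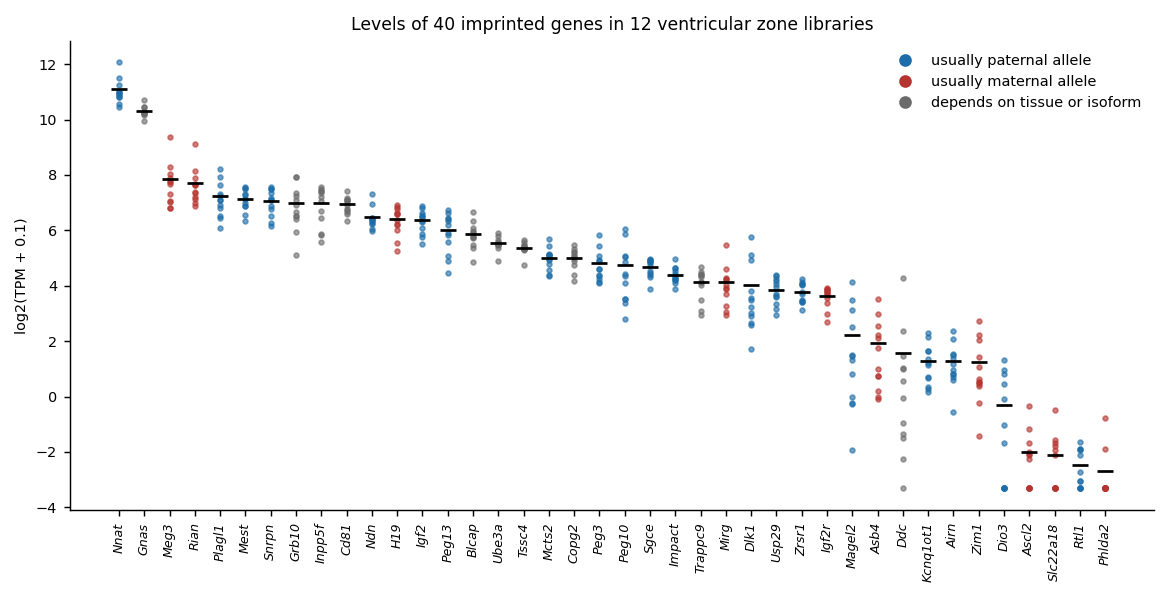
Levels of the 40 imprinted genes, ordered by mean TPM over 12 libraries, on a log2 axis after adding 0.1 TPM. Each point is 1 library, the black bar is the mean over the libraries, and colour gives the allele that is usually expressed; Nnat and Gnas stand above all others and Phlda2 is lowest.

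Nnat varied widely within 2 of the 4 groups. It stood at 1243, 1330 and 1262 CPM in the E13.5 p18mKO2- libraries, 1690, 1256 and 2364 CPM in E13.5 p18mKO2+, 870.2, 944.0 and 1324 CPM in E16.5 p18mKO2- and 1039, 1235 and 1135 CPM in E16.5 p18mKO2+. Replicate 3 was the highest library of both E13.5 p18mKO2+ and E16.5 p18mKO2-, and no comparison passed the test for Nnat. Gnas stood at 1049, 977 and 1321 CPM in E13.5 p18mKO2-, 925, 1013 and 925 CPM in E13.5 p18mKO2+, 814, 853 and 1009 CPM in E16.5 p18mKO2- and 854, 847 and 929 CPM in E16.5 p18mKO2+. Its groups overlapped at each stage and it was not called in any comparison.

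The first comparison, p18mKO2+ against p18mKO2- at E13.5, asks how the libraries labelled p18mKO2+ differ from those labelled p18mKO2- at the earlier stage. Of the 37 tested members 6 were higher and 1 was lower in p18mKO2+ (edgeR quasi-likelihood, Benjamini-Hochberg adjusted p under 0.05 over all genes). The share called among all 16798 tested genes was 10.8%, with 7.29% higher and 3.49% lower, and whether the members' share exceeded that background was not tested. Higher were the paternally expressed Usp29, Peg13 and Snrpn, the maternally expressed Zim1 and the context-dependent Inpp5f and Blcap, and lower was the paternally expressed Plagl1. The median log2 fold change was 0.26 over the 20 paternally expressed members and 0.65 over the 7 tested maternally expressed members. It was 0.24 over the 10 context-dependent members and 0.01 over all genes tested. The 0.65 is the value of Asb4, which was not called, and of the 7 only Zim1 was called. With Ube3a, Trappc9, Copg2, Cd81 and Tssc4 added to the maternally expressed members the median over 12 tested was 0.33. A difference between the classes was not tested, here or for the stage comparison below. In bulk tissue fewer cells of a type and less RNA per cell cannot be told apart.

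Plagl1, also known as Zac1, encodes a zinc finger transcription factor that can arrest the cell cycle (chromosome 10, 13060504 to 13131694, plus strand, GRCm38). It stood at 684, 615 and 1000 CPM in the 3 E13.5 p18mKO2- libraries and at 364, 422 and 337 CPM in the 3 E13.5 p18mKO2+ libraries. Every p18mKO2+ library was below every p18mKO2- library, with replicate 3 of p18mKO2- the highest of all. The means were 766 ± 206 and 374 ± 43.4 CPM (SD, n = 3 each), a log2 fold change of -1.03 ± 0.18 (± SE; adjusted p = 0.00354 by edgeR's quasi-likelihood test with Benjamini-Hochberg adjustment, as for all adjusted p values of fold changes). On the TPM scale the call was lost, with a difference of -0.71 in log2(TPM + 1) (limma, adjusted p = 0.0607), a scale on which the median of all genes lay at 0.14.

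Usp29 encodes a ubiquitin-specific protease whose promoter adjoins that of Peg3. It stood at 29.0, 31.4 and 24.6 CPM in E13.5 p18mKO2- and at 67.6, 38.8 and 70.6 CPM in E13.5 p18mKO2+, a log2 fold change of 1.06 ± 0.20 (SE; edgeR quasi-likelihood, adjusted p = 0.00467). Replicate 2 of p18mKO2+ was nearest to the normal libraries, yet the groups did not overlap. Peg13, a noncoding RNA from an intron of Trappc9, stood at 97.9, 87.5 and 69.3 CPM in p18mKO2- and at 153.6, 134.9 and 217 CPM in p18mKO2+, a log2 fold change of 0.99 ± 0.18 (edgeR quasi-likelihood, adjusted p = 0.0035). Its groups were apart as well, and replicate 3 of p18mKO2+ was highest. Both calls were kept when each library in turn was left out, and without the 2 libraries of mixed sex.

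Inpp5f encodes an inositol phosphatase with an imprinted brain isoform that starts inside the gene. It stood at 100.5, 101.7 and 88.4 CPM in E13.5 p18mKO2- and 153.9, 152.4 and 255.5 CPM in E13.5 p18mKO2+, a log2 fold change of 0.95 ± 0.21 (SE; edgeR quasi-likelihood, adjusted p = 0.0121). The groups did not overlap, but replicate 3 of p18mKO2+ was far above the other 2, and without the libraries of mixed sex the change was 0.66 with an edgeR adjusted p of 0.068. Blcap, which encodes a small membrane protein and lies over Nnat on the opposite strand, stood at 48.9, 43.0 and 36.3 CPM in p18mKO2- and at 69.0, 54.9 and 96.4 CPM in p18mKO2+, a log2 fold change of 0.78 ± 0.19 (edgeR quasi-likelihood, adjusted p = 0.0169). Its call was lost without the libraries of mixed sex (0.53, edgeR adjusted p = 0.0984). It was lost without replicate 3 of p18mKO2+ alone (edgeR adjusted p = 0.0725). Omission of replicate 2 or 3 of p18mKO2- lost it as well (edgeR adjusted p 0.051 and 0.0628). A fit of only the groups compared lost the Blcap call too.

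Snrpn encodes a protein of the small nuclear ribonucleoprotein particles that act in splicing, and lies in the mouse counterpart of the Prader-Willi region. It stood at 103.9, 88.2 and 86.2 CPM in E13.5 p18mKO2- and at 140.9, 119.1 and 186.8 CPM in E13.5 p18mKO2+, a log2 fold change of 0.68 ± 0.18 (SE; edgeR quasi-likelihood, adjusted p = 0.0271). All p18mKO2+ libraries were higher, with replicate 3 highest, and leaving out replicate 1 or 3 of p18mKO2+ or replicate 2 or 3 of p18mKO2- gave edgeR adjusted p values of 0.0575, 0.118, 0.0886 and 0.0832. Without the libraries of mixed sex the change of Snrpn was 0.49 (edgeR adjusted p = 0.145). Zim1, a zinc finger gene next to Peg3, was low and variable at 1.30, 1.90 and 3.98 CPM in p18mKO2- and 12.3, 3.79 and 9.09 CPM in p18mKO2+. The log2 fold change was 1.81 ± 0.51 (edgeR quasi-likelihood, adjusted p = 0.0347), with overlapping groups, since replicate 2 of p18mKO2+ was below replicate 3 of p18mKO2-. The Zim1 call was lost without E13.5 p18mKO2+ replicate 1 (edgeR adjusted p = 0.15) or 3 (0.0925). It was lost without E13.5 p18mKO2- replicate 1 (edgeR adjusted p = 0.112) or 2 (0.111), or E16.5 p18mKO2+ replicate 1 (0.0526). Without the libraries of mixed sex the edgeR adjusted p was 0.104, and with Y-linked expression as a term 0.0532. Limma-voom, limma on log2(TPM + 1) and a fit of only the groups compared lost the Zim1 call too.

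**Figure D2:**
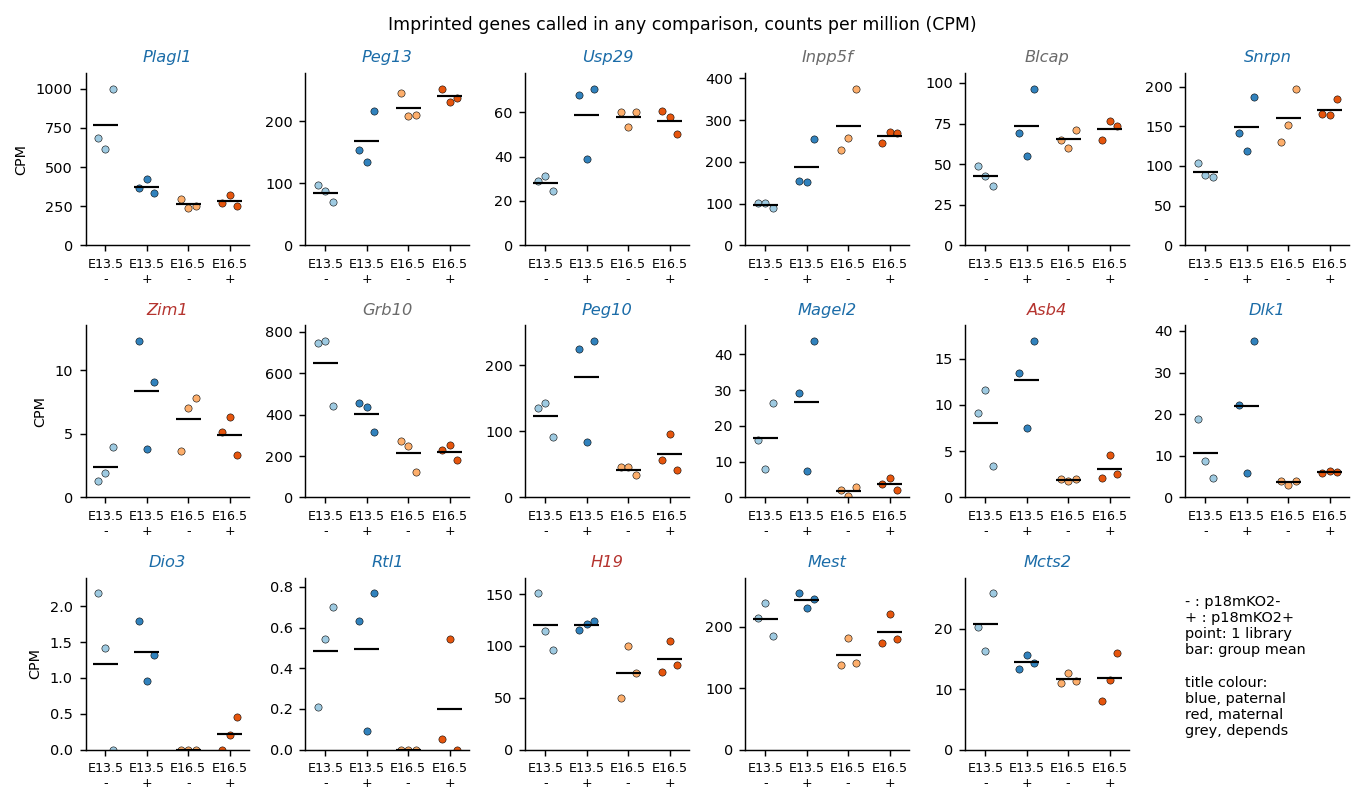
CPM of the 17 imprinted genes called in any comparison, on linear axes from 0, for E13.5 and E16.5 libraries of p18mKO2- (-) and p18mKO2+ (+). Points are libraries and bars group means; Plagl1 is highest in E13.5 p18mKO2- while Peg13, Usp29, Inpp5f, Blcap and Snrpn are lowest there.

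Without the 2 libraries of mixed sex 3 members were called at E13.5, Usp29, Peg13 and Plagl1, against 4.76% of all genes. With Y-linked expression as a term 6 were called, against 8.31% of all genes. The number was 4 without replicate 3 of E13.5 p18mKO2+ alone, against 5.59% of all genes. It was 11 without replicate 2 of that group, against 10.9% of all genes. Neuron markers moved in the same comparison: 6 of 10 were called higher and none lower, and the ranges of their sum, given above, did not overlap. Of the 10 radial glia markers 6 were lower, and of the 8 markers of ventral forebrain and interneurons 2 were higher, with sums of 149.0 to 395.7 CPM in p18mKO2- and 500.6 to 694.9 CPM in p18mKO2+ and none of the 8 at 0 in a library. Among 7 erythroid markers 2 were lower, with sums of 1347 to 1392 and 493.4 to 815.9 CPM, while Hbb-bh1 was at 0 in 5 of the 12 libraries. The part of these shifts in the changes of imprinted genes was not tested.

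Some members not called at E13.5 had groups that did not overlap. The share of all genes with such a separation was not counted, here or for uncalled members below. Nothing is therefore concluded from it. Ndn, which encodes the growth suppressor necdin, lay 0.54 ± 0.20 higher on the log2 scale (SE; edgeR adjusted p = 0.102), and Ube3a, the ubiquitin ligase of Angelman syndrome, 0.39 ± 0.19 higher (edgeR adjusted p = 0.215). Cd81 (-0.29), Tssc4 (-0.33) and Mcts2 (-0.53) lay lower on the same scale, with edgeR adjusted p values of 0.163, 0.159 and 0.193. The Ube3a groups nearly met, at 222.4 CPM in the highest p18mKO2- library and 222.7 CPM in the lowest p18mKO2+ library. The growth pair Igf2 and H19 showed little: H19 differed by -0.00 ± 0.22 and Igf2 by -0.17 ± 0.29 on the log2 scale (SE; edgeR adjusted p = 0.997 and 0.777). For the receptor gene Igf2r, which clears the growth factor IGF2 from the cell surface, the log2 fold change was -0.01 ± 0.21 (edgeR adjusted p = 0.99).

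**Figure D3:**
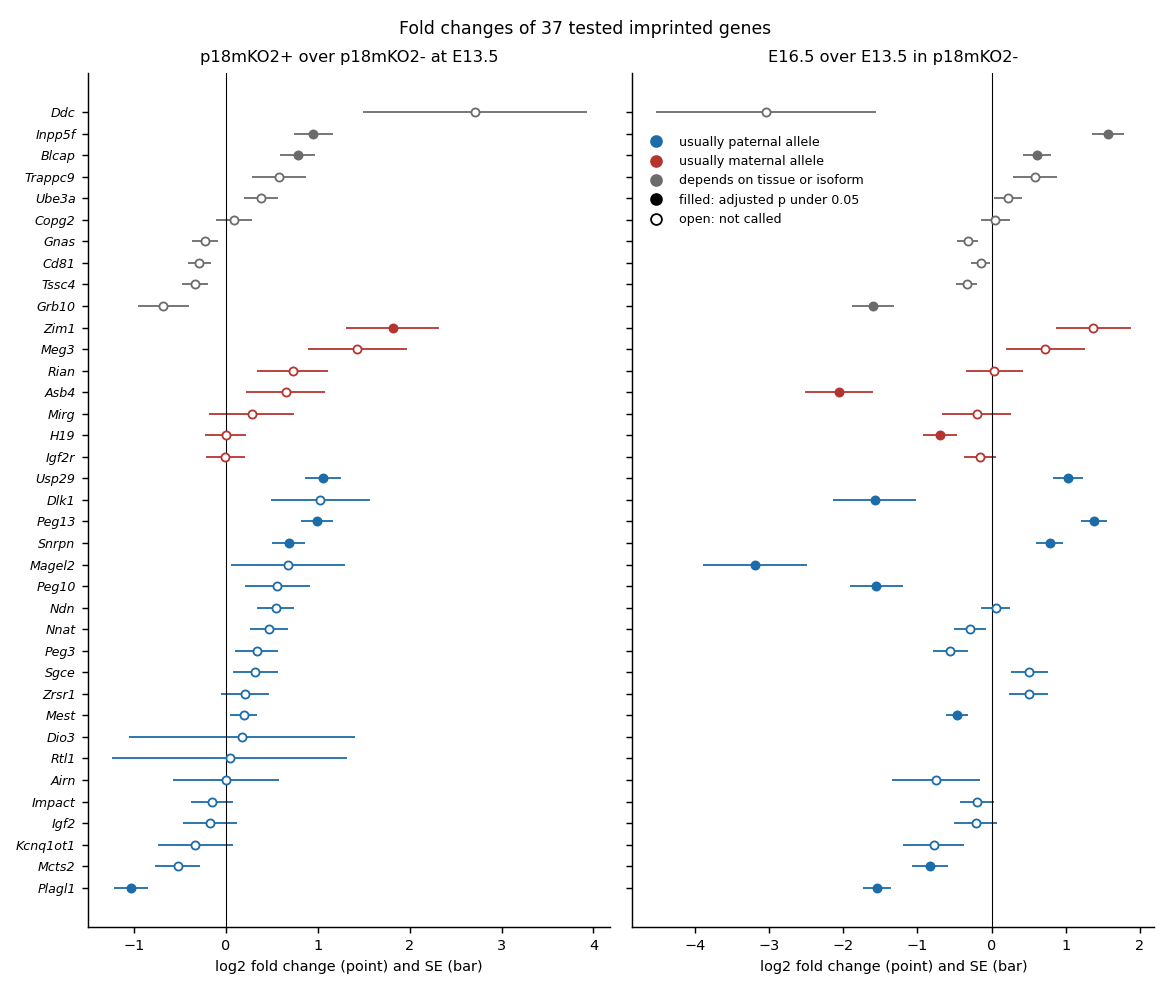
Log2 fold changes of the 37 tested imprinted genes for p18mKO2+ over p18mKO2- at E13.5 (left) and E16.5 over E13.5 in p18mKO2- (right). Points are edgeR estimates, bars are 1 SE, and filled points passed an adjusted p of 0.05; Rtl1 and Dio3, at 0 in all E16.5 p18mKO2- libraries, are left out on the right, and the 2 panels share the E13.5 p18mKO2- libraries.

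Between E13.5 and E16.5 in normal tissue, 16 of 37 members changed, 5 rising and 11 falling. Among all genes 29.8% were called, 16.4% higher and 13.4% lower. Usp29, Peg13 and Snrpn of the paternally expressed class and Inpp5f and Blcap of the context-dependent class rose. Falling were Plagl1, Magel2, Peg10, Dio3, Rtl1, Dlk1, Mest and Mcts2, all paternally expressed, with the maternally expressed Asb4 and H19 and the context-dependent Grb10. The median log2 fold change was -0.51 over the paternally expressed, -0.16 over the maternally expressed and -0.05 over the context-dependent members tested, against -0.02 over all genes. This comparison and the p18 comparison at E13.5 share the E13.5 p18mKO2- libraries, so the direction of a gene in one is not independent of its direction in the other.

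Plagl1 stood at 298, 236 and 253 CPM in the E16.5 p18mKO2- libraries, all below the E13.5 values given above, a log2 fold change of -1.55 ± 0.19 (SE; edgeR quasi-likelihood, adjusted p = 4.27e-05). Grb10 encodes an adaptor protein that restrains growth factor signalling. It stood at 748, 756 and 444 CPM in E13.5 p18mKO2- and 273, 247 and 122.7 CPM in E16.5 p18mKO2-, and showed a log2 fold change of -1.60 ± 0.28 (edgeR quasi-likelihood, adjusted p = 0.000757). The third replicate was the lowest at either stage and the stages did not overlap. In E13.5 p18mKO2+ Grb10 stood between them at 458, 438 and 318 CPM, a log2 fold change of -0.68 ± 0.28 against E13.5 p18mKO2- (edgeR adjusted p = 0.137). It overlapped with that group through p18mKO2- replicate 3.

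Magel2 encodes a MAGE protein that acts with ubiquitin ligases in protein recycling. It stood at 15.9, 7.87 and 26.5 CPM in E13.5 p18mKO2- and at 2.03, 0.458 and 3.07 CPM in E16.5 p18mKO2-, a log2 fold change of -3.19 ± 0.70 (SE; edgeR quasi-likelihood, adjusted p = 0.00366). The stages were apart although replicates of 1 stage differed several-fold. By limma-voom Magel2 was not called (adjusted p = 0.0625). Peg10, derived from a retrotransposon, stood at 136, 142.6 and 91.8 CPM at E13.5 and 46.0, 46.5 and 33.7 CPM at E16.5, a log2 fold change of -1.55 ± 0.36 (edgeR quasi-likelihood, adjusted p = 0.00497). Asb4, a gene for an ankyrin repeat protein with a SOCS box, stood at 9.09, 11.6 and 3.45 CPM at E13.5 and 2.03, 1.73 and 2.03 CPM at E16.5, a log2 fold change of -2.06 ± 0.46 (edgeR quasi-likelihood, adjusted p = 0.00394). The stages did not overlap for Peg10 or Asb4, and the calls of Plagl1, Grb10, Magel2, Peg10 and Asb4 were kept without each library in turn.

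Mest encodes a protein of the alpha/beta hydrolase fold and Mcts2 is a retrogene inside an intron of H13, and the promoters of both are printed above. Mest stood at 213, 238 and 184 CPM in E13.5 p18mKO2- and 137, 182 and 140.2 CPM in E16.5 p18mKO2-, a log2 fold change of -0.47 ± 0.15 (SE; edgeR quasi-likelihood, adjusted p = 0.0293). Mcts2 stood at 20.3, 16.3 and 25.9 CPM at E13.5 and 11.0, 12.7 and 11.4 CPM at E16.5, a log2 fold change of -0.83 ± 0.24 (edgeR quasi-likelihood, adjusted p = 0.02). The stages did not overlap for either gene. The Mest call was lost without replicate 1 or 2 of E13.5 p18mKO2- (edgeR adjusted p 0.068 and 0.115) and without replicate 1 or 3 of E16.5 p18mKO2- (0.0923 and 0.0742). Without the libraries of mixed sex the change of Mest was -0.45 with an edgeR adjusted p of 0.051. The Mest call was lost also with no filter, on log2(TPM + 1) in limma and in a fit of only the groups compared. The Mcts2 call was lost without the third E13.5 p18mKO2- library (edgeR adjusted p = 0.0828) or the first E16.5 p18mKO2- library (0.0557).

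H19, a noncoding RNA that hosts a microRNA, stood at 150.7, 114.7 and 96.2 CPM in E13.5 p18mKO2- and 49.6, 99.8 and 73.5 CPM in E16.5 p18mKO2-. The log2 fold change was -0.70 ± 0.23 (SE; edgeR quasi-likelihood, adjusted p = 0.0317), and the stages overlapped through E16.5 replicate 2. It was not called without E13.5 p18mKO2- replicate 1 or 2 (edgeR adjusted p 0.143 and 0.055). Nor was H19 called without E16.5 p18mKO2- replicate 1 or 3 (edgeR adjusted p 0.105 and 0.0628). The same held without the libraries of mixed sex (edgeR adjusted p = 0.0506) and in a fit of only the groups compared. In p18mKO2+ libraries H19 stood at 115.6, 121.3 and 124.1 CPM at E13.5 and at 75.2, 104.4 and 81.6 CPM at E16.5, each E16.5 library below each E13.5 library of p18mKO2+, with a log2 fold change of -0.47 ± 0.22 and an edgeR adjusted p of 0.359. Igf2, its neighbour on chromosome 7, ranged from 78.0 to 166.4 CPM over all 12 libraries and was not called in any comparison.

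Peg13 rose to 244.9, 207.8 and 210.5 CPM in E16.5 p18mKO2-, a log2 fold change of 1.38 ± 0.18 from E13.5 (SE; edgeR quasi-likelihood, adjusted p = 6.89e-05). Inpp5f reached 228, 256 and 375 CPM, a log2 fold change of 1.56 ± 0.22 (edgeR quasi-likelihood, adjusted p = 0.000115). For Usp29 the E16.5 libraries stood at 60.1, 53.2 and 60.1 CPM, with a log2 fold change of 1.03 ± 0.20 (edgeR quasi-likelihood, adjusted p = 0.00152). Each of these 3 genes was higher in all E16.5 libraries than in any E13.5 p18mKO2- library. On log2(TPM + 1) the Usp29 call was lost (limma, adjusted p = 0.0724). The mean transcript length of Usp29 was 5004 bases in E13.5 p18mKO2- and 6062 in E16.5 p18mKO2-, and its part in the change was not tested. Snrpn stood at 130.1, 152 and 197 CPM, a log2 fold change of 0.78 ± 0.18 (edgeR quasi-likelihood, adjusted p = 0.0048), and Blcap at 65.02, 59.9 and 70.9 CPM, 0.61 ± 0.19 (edgeR quasi-likelihood, adjusted p = 0.0239). The stages of Snrpn and Blcap did not overlap either. The Blcap call was lost without replicate 2 or 3 of E13.5 p18mKO2- (edgeR adjusted p 0.0584 and 0.0866). It was lost without replicate 3 of E16.5 p18mKO2- (edgeR adjusted p = 0.0561) and on log2(TPM + 1) (limma, adjusted p = 0.0999).

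All 10 neuron markers rose in the same stage comparison and 8 of 10 radial glia markers fell while 1 rose, the glutamate transporter gene Slc1a3 (0.69 on the log2 scale, edgeR adjusted p = 0.00688), with sums that did not overlap between the stages in p18mKO2- libraries. Pericyte markers moved too, with 5 of 8 called higher, 1 lower and sums of 150.1 to 183.0 against 196.1 to 221.3 CPM, and Higd1b was at 0 in 3 of the 12 libraries. Of the 9 markers of meninges and fibroblasts 4 fell, from sums of 228.6 to 313.8 to sums of 76.62 to 135.6 CPM, with none at 0. Erythroid markers fell for 4 of 7, from sums of 1347 to 1392 to sums of 361.3 to 575.5 CPM. Of the 8 ventral markers 1 rose and 3 fell, while their sums of 149.0 to 395.7 and 194.0 to 288.2 CPM overlapped. Their part in the changes of imprinted genes was not tested.

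The second p18 comparison, at E16.5, called 0 members and 0 of all 16798 genes (0.0%) by edgeR quasi-likelihood, although 426 genes had an unadjusted p under 0.05. DESeq2 called 16 genes, none of them a member, and limma-voom called 2, again no member. The median log2 fold change of the 37 members was 0.12, against -0.01 over all genes. Plagl1 stood at 273, 322 and 249.6 CPM in E16.5 p18mKO2+, overlapping with E16.5 p18mKO2-, with a log2 fold change of 0.10 ± 0.18 (SE; edgeR adjusted p = 1). Usp29 stood at 60.4, 57.8 and 50.2 CPM (log2 fold change -0.04 ± 0.20), and Peg13 at 251.9, 231 and 236 CPM (0.12 ± 0.17). Inpp5f at 246, 270.7 and 270.1 CPM, Blcap at 64.8, 76.8 and 73.3 CPM, Snrpn at 165.5, 163.7 and 183.9 CPM and Zim1 at 5.19, 6.30 and 3.32 CPM overlapped with normal tissue as well. None of the 8 ventral markers was called at E16.5, but all 8 lay higher in p18mKO2+. Their sums were apart, at 194.0 to 288.2 CPM in p18mKO2- and 381.0 to 553.5 CPM in p18mKO2+. The sums of neuron and radial glia markers, given above, overlapped. The part of the ventral shift in the values of imprinted genes was not tested.

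The difference of the p18 effect between the stages was called for 1 member, Plagl1, where 2.7% of all genes were called, 0.298% with a more positive and 2.4% with a more negative effect at E16.5. For Plagl1 the log2 fold change with p18 was 1.14 ± 0.26 more positive at E16.5 than at E13.5 (SE; edgeR quasi-likelihood, adjusted p = 0.0347). This call rested on few libraries: it was lost without E13.5 p18mKO2+ replicate 1 or 3, without any one of the E16.5 p18mKO2+ libraries, and without replicate 2 or 3 of E16.5 p18mKO2-, at edgeR adjusted p values of 0.0521 to 0.119. It was lost also without the libraries of mixed sex (1.16, edgeR adjusted p = 0.107). With Y-linked expression as a term (1.14, edgeR adjusted p = 0.0509) and on log2(TPM + 1) in limma the call was lost too. For the 6 members higher with p18 at E13.5 the difference ran the other way, from -0.59 for Snrpn to -2.14 for Zim1 on the log2 scale. These 6 were picked by their E13.5 effect, which is subtracted in the difference. Its direction was thus partly set by the choice and is no separate result. Usp29 (-1.10 ± 0.28), Inpp5f (-1.08 ± 0.30) and Peg13 (-0.87 ± 0.25) came near the threshold with edgeR adjusted p values of 0.0529, 0.0749 and 0.0812. For these 6 genes a difference in effect between the stages was thus not shown by this test, nor was an equal effect.

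Between the stages in p18mKO2+ tissue 1 member was called, against 1.64% of all genes, with 1.08% higher and 0.554% lower. Asb4 fell from 13.48, 7.54 and 16.9 CPM to 2.06, 4.56 and 2.49 CPM, a log2 fold change of -2.06 ± 0.45 (SE; edgeR quasi-likelihood, adjusted p = 0.0398). The stages did not overlap, and the estimate was nearly that of normal tissue, with a difference of 0.00. The changes had SEs of 0.45 in p18mKO2+ and 0.46 in normal tissue, so an equal change was not shown. Without replicate 1 or 3 of E13.5 p18mKO2+, the same replicates of E16.5 p18mKO2+, replicate 1 of E13.5 p18mKO2- or replicate 2 of E16.5 p18mKO2-, each left out alone, the edgeR adjusted p lay between 0.0565 and 0.189. Without the libraries of mixed sex the change was -1.63 (edgeR adjusted p = 0.23). With Y-linked expression as a term it was -1.98 (edgeR adjusted p = 0.0749). On log2(TPM + 1) in limma this Asb4 call was lost too. Magel2 went from 29.1, 7.54 and 43.8 CPM to 3.88, 5.56 and 2.12 CPM without overlap (log2 fold change -2.80 ± 0.67, edgeR adjusted p = 0.0528), and Peg10 from 224.5, 84.7 and 237 CPM to 57.3, 96.8 and 42.1 CPM with overlap (-1.48 ± 0.36, edgeR adjusted p = 0.0549). Mest stood at 254, 229.5 and 244 CPM and then at 173, 219.7 and 179.9 CPM, and Mcts2 at 13.4, 15.7 and 14.3 CPM and then at 8.004, 11.6 and 15.9 CPM, neither called. Grb10 stood at 228, 252 and 183 CPM at E16.5, below each E13.5 p18mKO2+ library, with a log2 fold change of -0.87 ± 0.28 (edgeR adjusted p = 0.139).

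In the Dlk1-Dio3 domain on chromosome 12 the paternal chromosome expresses the proteins Dlk1, Rtl1 and Dio3, and the maternal one the noncoding RNAs Meg3, Rian and Mirg. Meg3 stood at 168.5, 135.8 and 197 CPM in E13.5 p18mKO2-, at 272, 152 and 926 CPM in E13.5 p18mKO2+, at 194, 153 and 481 CPM in E16.5 p18mKO2- and at 300.5, 379.9 and 267 CPM in E16.5 p18mKO2+. Rian stood at 204, 168 and 222 CPM, then 228.5, 167 and 589.9 CPM, then 136.7, 166 and 306 CPM, then 232, 285 and 218.5 CPM in the same order. Within 2 groups a single library, replicate 3 of E13.5 p18mKO2+ and replicate 3 of E16.5 p18mKO2-, stood well above its partners for both RNAs. Mirg did the same, at 18.4 CPM against 7.13 and 4.21 in the first of these groups and at 11.7 CPM against 4.30 and 5.39 in the second. The first of these libraries is of mixed sex and the second is not. No comparison called Meg3, Rian or Mirg, and at E13.5 the log2 fold change of Meg3 with p18 was 1.43 ± 0.54 (SE; edgeR adjusted p = 0.108).

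**Figure D4:**
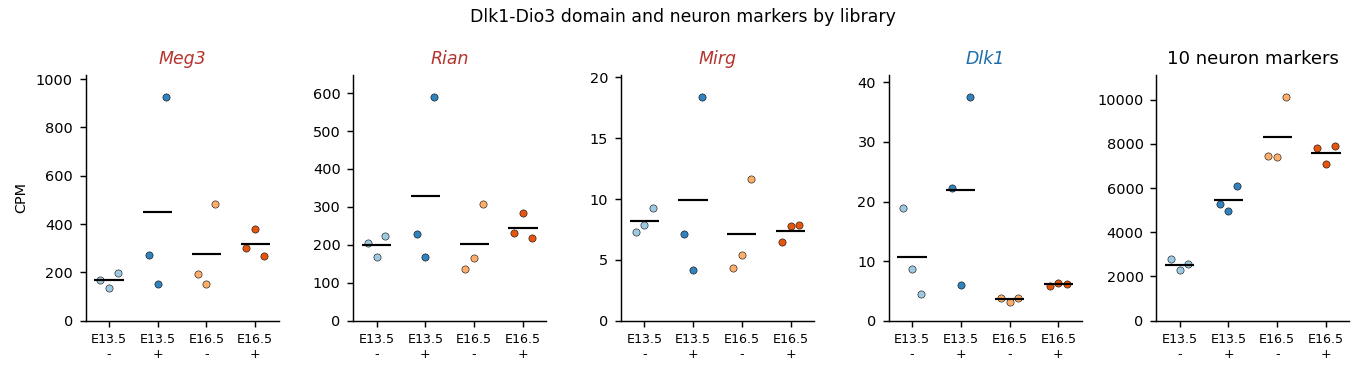
Meg3, Rian and Mirg (red titles, maternally expressed), Dlk1 (blue title, paternally expressed) and the sum of 10 neuron markers in CPM, on linear axes from 0; points are libraries and bars group means. Replicate 3, the rightmost point, stands highest of E13.5 p18mKO2+ and of E16.5 p18mKO2- in every panel. For Dlk1 in E16.5 p18mKO2- it hardly exceeds replicate 1 (3.882 against 3.868 CPM).

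Dlk1 encodes a transmembrane protein related to Notch ligands. It stood at 18.95, 8.68 and 4.56 CPM in E13.5 p18mKO2-, 22.2, 5.99 and 37.6 CPM in E13.5 p18mKO2+, 3.87, 3.05 and 3.88 CPM in E16.5 p18mKO2- and 5.84, 6.35 and 6.22 CPM in E16.5 p18mKO2+. Values at E13.5 varied several-fold within a group, while those at E16.5 were close together, and each E16.5 p18mKO2- library was below each E13.5 p18mKO2- library. The fall in normal tissue was called at a log2 fold change of -1.58 ± 0.56 (SE; edgeR quasi-likelihood, adjusted p = 0.0474), but in only 3 of 12 fits that left out 1 library, those without E13.5 p18mKO2+ replicate 2 or 3 or E13.5 p18mKO2- replicate 3. Without E13.5 p18mKO2- replicate 1, the highest library, the change was -0.88 (edgeR adjusted p = 0.267), and the other 8 fits gave adjusted p values of 0.0614 to 0.131. With Y-linked expression as a term the Dlk1 change was -1.34 (edgeR adjusted p = 0.122). Limma-voom and limma on log2(TPM + 1) did not call this change either. At E16.5 every p18mKO2+ library was above every p18mKO2- library (0.77 ± 0.56, edgeR adjusted p = 1).

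Dio3, the deiodinase that inactivates thyroid hormone, was detected at E13.5 at 2.18, 1.41 and 0 CPM in p18mKO2- and 1.79, 0.960 and 1.32 CPM in p18mKO2+. At E16.5 it was 0 in all p18mKO2- libraries and stood at 0, 0.198 and 0.461 CPM in p18mKO2+. In normal tissue the summed counts went from 68 to 0, so that Dio3 was at least 22.0-fold lower, taking a floor of 3 counts over the group (edgeR quasi-likelihood, adjusted p = 0.0177). The groups overlapped at 0 through E13.5 replicate 3, and the floor covers counting error only. With the libraries of the 2 stage groups fitted alone the edgeR adjusted p of Dio3 was 0.0525. The Dio3 call was lost also by limma-voom and by limma on log2(TPM + 1). Rtl1, another retrotransposon-derived gene, read from the strand opposite to Meg3 and Rian, stood at 0.208, 0.543 and 0.702 CPM in E13.5 p18mKO2- and at 0 in the 3 E16.5 p18mKO2- libraries. Its counts went from 26 to 0, which is at least 8.42-fold lower by the same floor (edgeR quasi-likelihood, adjusted p = 0.0402). In p18mKO2+ Rtl1 stood at 0.630, 0.0914 and 0.768 CPM at E13.5 and at 0.0503, 0.546 and 0 CPM at E16.5. With so few counts the Rtl1 call was lost without E13.5 p18mKO2+ replicate 1 or 3 or E13.5 p18mKO2- replicate 2 or 3. It was lost also without any one of the E16.5 p18mKO2- libraries. These omissions gave edgeR adjusted p values of 0.0516 to 0.0897, and Y-linked expression as a term gave 0.0664. Limma-voom, limma on log2(TPM + 1), a replicate block and a fit of only the groups compared lost the Rtl1 call too.

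Members that start side by side on opposite strands allow levels to be compared within a library. Peg3, a zinc finger gene on the minus strand, and Usp29 start 146 bases apart in the GENCODE annotation, over the sequence printed above. Peg3 stood at 182.6, 168.8 and 118 CPM in E13.5 p18mKO2-, 219.8, 125 and 247 CPM in E13.5 p18mKO2+, 104, 90.2 and 125 CPM in E16.5 p18mKO2- and 103, 128 and 95.04 CPM in E16.5 p18mKO2+. The mean log2 ratio of Usp29 to Peg3 (CPM plus 0.5) was -2.43 in E13.5 p18mKO2-, -1.72 in E13.5 p18mKO2+, -0.86 in E16.5 p18mKO2- and -0.94 in E16.5 p18mKO2+, so Peg3 gave more reads in every group and by a smaller margin at E16.5. Averaged over p18 status the ratio was 1.17 higher at E16.5 (exact two-sided permutation of the stage within p18 status, p = 0.005, the smallest that 400 exchanges allow, Benjamini-Hochberg adjusted p = 0.02 over 4 tests). Averaged over stage it was 0.31 higher in p18mKO2+ (exact permutation p = 0.08, adjusted p = 0.107). This ratio and the next were chosen with the members' values known, so their tests describe these libraries. Both are ratios of reads and were not scaled by transcript length.

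The second such pair is Sgce, which encodes epsilon-sarcoglycan, on the minus strand and Peg10 on the plus strand, with starts 98 bases apart. Sgce ranged from 14.5 to 38.7 CPM over all libraries and was not called in any comparison. The mean log2 ratio of Peg10 to Sgce was 2.58, 2.69, 0.57 and 1.25 in E13.5 p18mKO2-, E13.5 p18mKO2+, E16.5 p18mKO2- and E16.5 p18mKO2+. It was 1.73 lower at E16.5, a difference of -1.73 (exact two-sided permutation p = 0.01, adjusted p = 0.02), and 0.39 higher in p18mKO2+ (exact permutation p = 0.385, adjusted p = 0.385). Between the stages the reads of a pair thus shifted towards Usp29 in one pair and away from Peg10 in the other.

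**Figure D5:**
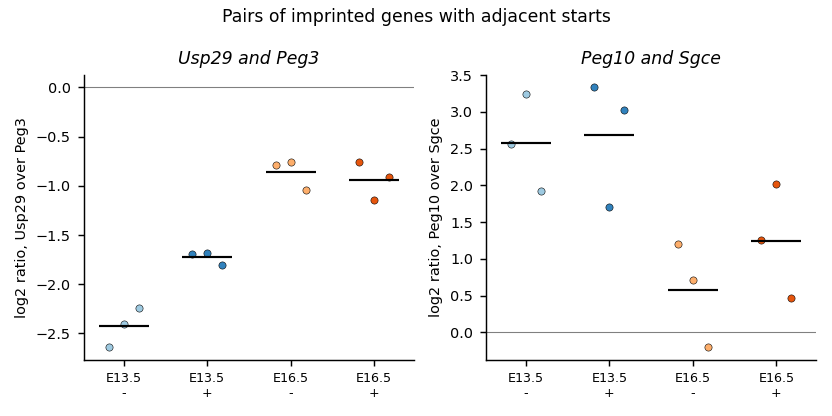
Log2 ratio of CPM within each library for the pairs Usp29 over Peg3 (left) and Peg10 over Sgce (right), whose starts lie 146 and 98 bases apart; points are libraries, bars group means and the grey line marks equal counts. At E16.5 the left ratio is higher and the right ratio lower than at E13.5.

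Several members overlap other genes, and this limits what the counts of each can say. The labels name a directional library kit, but no source used here gives the strand setting of the counting. Nnat lies within Blcap on the opposite strand (2445 bases), Airn overlaps Igf2r (28354 bases), Kcnq1ot1 overlaps Kcnq1 (93092 bases) and the ends of Mest and Copg2 overlap by 912 bases. Peg13 lies within Trappc9 and Mcts2 within H13 on the same strand, so unspliced reads of the host gene can count towards them. Trappc9, which encodes a subunit of a vesicle-tethering complex, stood at a log2 fold change of 0.58 ± 0.29 both with p18 at E13.5 and with stage in p18mKO2- (SE; edgeR adjusted p = 0.236 and 0.159), while Peg13 was called in both. Snrpn shares 9601 bases with Snurf and 22570 with Gm38393. Summed over the 3 genes the level was 110.4 ± 17.5, 174.2 ± 39.9, 177.1 ± 32.9 and 190.3 ± 10.6 CPM (SD, n = 3) in E13.5 p18mKO2-, E13.5 p18mKO2+, E16.5 p18mKO2- and E16.5 p18mKO2+, in the order of Snrpn alone.

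The remaining members moved little or were too variable to be called. Kcnq1ot1, the noncoding RNA that silences its cluster on the paternal chromosome, ranged from 54.2 to 308.9 CPM, and its log2 fold change with stage in p18mKO2+ was -1.34 ± 0.41 (SE; edgeR adjusted p = 0.13), with no overlap of the stages. Airn, the noncoding RNA that silences Igf2r in cis in tissues other than neurons, stayed between 0.407 and 1.755 CPM. Ddc, which encodes the enzyme that makes dopamine and serotonin from their precursors, was at 1.16, 0.869 and 14.4 CPM in E13.5 p18mKO2+ and did not exceed 2.58 CPM in any library of another group. At E16.5 Ddc stood at 0.123, 0 and 0.174 CPM in p18mKO2- and 0.705, 1.19 and 2.58 CPM in p18mKO2+. These groups did not overlap, and the log2 fold change of 3.88 ± 1.47 (SE) was not called. Copg2, a coatomer subunit gene, had log2 fold changes between 0.04 and 0.12 in the 5 comparisons, with edgeR adjusted p values of 0.837 or more. Impact and Zrsr1 were not called in any comparison either. Cd81, a tetraspanin gene, and Tssc4 ranged from 65.8 to 99.3 CPM and from 28.9 to 42.3 CPM.

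Imprinted genes outside the 40 were looked at through a further list of 42, of which 33 passed the filter. At E13.5 with p18, 9 were higher and 1 lower, and with stage in p18mKO2- 12 rose and 2 fell, against the shares of all genes given above. The median log2 fold change of the 33 was 0.36 with p18 at E13.5 and -0.02 with stage. Herc3, a gene for a HECT-domain ubiquitin ligase, went from 22.1, 17.2 and 21.5 CPM in E13.5 p18mKO2- to 49.5, 50.2 and 34.3 CPM in E13.5 p18mKO2+ and 59.0, 56.3 and 64.7 CPM in E16.5 p18mKO2-, with log2 fold changes of 1.14 ± 0.17 and 1.57 ± 0.18 (SE; edgeR quasi-likelihood, adjusted p = 0.00149 and 2.51e-05). Ampd3 (2.88 ± 0.47, edgeR adjusted p = 0.00215), Rasgrf1 (2.73 ± 0.59, 0.01) and Smoc1 (1.04 ± 0.23, 0.0105) were higher with p18 at E13.5 as well. With stage Ampd3 (4.01 ± 0.48, edgeR adjusted p = 4.04e-05) and Pde10a (1.17 ± 0.18, 0.000333) rose, while Peg12 had a log2 fold change of -2.10 ± 0.28 (9.44e-05). The p18 effect at E16.5 was called more negative than at E13.5 for 3 of the 33, where 2.4% of all genes were. These were Herc3, Ampd3 and Rasgrf1, by -1.16, -2.57 and -3.27 (edgeR quasi-likelihood, adjusted p = 0.0233, 0.0412 and 0.0435). Whether the share of the 33 exceeded that of all genes was not tested.

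Among 10 genes that maintain or read imprints, 1 was called with p18 at E13.5, where 10.8% of all genes were. Uhrf1, which recruits the maintenance DNA methyltransferase to newly copied DNA, stood at 212, 295 and 169 CPM in E13.5 p18mKO2- and 112.6, 141 and 99.3 CPM in E13.5 p18mKO2+, a log2 fold change of -0.94 ± 0.24 (SE; edgeR quasi-likelihood, adjusted p = 0.0249). With stage in p18mKO2- 4 of the 10 fell and 1 rose, where 13.4% of all genes were lower and 16.4% higher. Uhrf1 fell by 1.48, Trim28 by 0.68, Dnmt1 by 0.62 and Setdb1 by 0.40 on the log2 scale, and Arid4a rose by 0.64 (edgeR quasi-likelihood, adjusted p = 0.000498, 0.0301, 0.0472, 0.0249 and 0.00254). Dnmt1 is the maintenance methyltransferase, and Trim28 and Setdb1 act with KRAB zinc finger proteins such as ZFP57 in silencing. The other 5, among them Zfp57 and Ctcf, were not called in any comparison.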

How the data were processed

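Gene tables of 12 libraries were used, 3 in each of 4 groups taken from the labels. Expected counts were deposited by the authors per gene; per the file headers they are RSEM output, which shares multi-mapped reads between genes. TPM values, also deposited per the file headers, relate those counts to transcript length. The submitters' processing notes list cutadapt 3.4, STAR 2.7.2b and RSEM 1.2.31 and build GRCm38. Names and coordinates came from GENCODE M21 (GRCm38), in which 55227 of the 55487 identifiers were found.

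Expected counts were rounded, and 16798 genes passing edgeR's filterByExpr were fitted by quasi-likelihood (edgeR 4.0.16, R 4.3.3, TMM scaling, 4 group means, 8 residual degrees of freedom, biological coefficient of variation 0.311). Calls use a Benjamini-Hochberg adjusted p under 0.05 over all genes. CPM uses TMM-scaled library sizes, SE is the log2 fold change over the root of F, and the method was tested on simulated data. The members and the other lists were chosen with earlier results of these data known. Values per library are given for members called in any comparison and the 3 of highest mean TPM in each class. Of the other lists called genes are named, at most 4 per comparison by smallest p. Members described as not called, Slc1a3, Dnmt1 and the values per library of Herc3 and Uhrf1 were added after their values were seen. Other settings tried were DESeq2 1.42.0, voom and log2(TPM + 1) in limma 3.58.1, scaling by RLE, testing without a filter or at a mean CPM of 5 or more, a replicate block, only the groups compared, omission of the libraries of mixed sex, omission of each library and, added after the data were seen, summed Y-linked CPM as a term of the fit. Length and the posterior standard deviation of the count (at most 0.445% of the count for any member) served for description. Promoters from RefSeq on the chromosome of Impact were not used.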

Additional observations from a re-analysis of the deposited data

Results flagged for a closer look

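The effect of p18 on Plagl1 was called as different between the stages by the test of the difference itself, a call that depended on few libraries. The log2 fold change with p18 was -1.03 ± 0.18 in E13.5 tissue and 0.10 ± 0.18 in E16.5 tissue (SE), a difference of 1.14 ± 0.26 with an edgeR quasi-likelihood adjusted p of 0.0347. All E13.5 p18mKO2+ libraries were below all E13.5 p18mKO2- libraries, and the groups overlapped at E16.5. Without the 2 libraries of mixed sex the difference was 1.16, with an edgeR adjusted p of 0.107. With Y-linked expression as a term it was 1.14 with an edgeR adjusted p of 0.0509. The call was kept in only 5 of 12 fits that left out 1 library, and was lost on log2(TPM + 1) in limma.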

How the results depend on the processing

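The number of members called with p18 at E13.5 (7) became 15 with no filter and 3 without the libraries of mixed sex, and ran from 4 to 11 when 1 library was left out. With p18 at E16.5 it was 0 throughout except for 2 with no filter, and 0 to 0 over the omissions. With stage in p18mKO2- it was 16, but 10 on log2(TPM + 1), and 11 to 18 over the omissions. With stage in p18mKO2+ the 1 call became 6 with DESeq2, 9 with no filter, 3 at a mean CPM of at least 5, 0 on log2(TPM + 1), 4 with only the groups compared 0 without the libraries of mixed sex and 0 with Y-linked expression as a term, and ran from 0 to 5 over the omissions. The 1 member with a p18 effect that differed by stage became 5 with DESeq2, 6 with no filter, 2 at a mean CPM of at least 5, 0 on log2(TPM + 1), 0 without the libraries of mixed sex and 0 with Y-linked expression as a term, and ran from 0 to 3. The share of all genes called moved as well. When 1 library was left out it ran from 5.59% to 14.4% with p18 at E13.5. With stage in p18mKO2- it ran from 24.8% to 30.0% over these omissions. For stage in p18mKO2+ and the difference by stage the ranges were 0.476% to 3.5% and 0.744% to 3.23%. With stage in p18mKO2+ it was 1.64%, but 5.6% with DESeq2, 3.57% with no filter, 3.2% at a mean CPM of at least 5, 0.923% on log2(TPM + 1), 3.46% with only the groups compared, 0.726% without the libraries of mixed sex and 1.11% with Y-linked expression. For the difference by stage it was 2.7%, then 8.5%, 4.3%, 4.73%, 0.298%, 0.881% and 2.14% in that order, leaving out the groups compared. At E13.5 it was 10.8%, but 9.3% with no filter and 4.76% without the libraries of mixed sex, at E16.5 0.298% with no filter, and with stage in p18mKO2- 29.8%, but 21.6% on log2(TPM + 1). On that scale 930 genes were higher and 133 lower with p18 at E13.5, against 1224 and 586 in counts, and 141 higher and 14 lower with stage in p18mKO2+, against 182 and 93. Fewer libraries and another number of genes tested are part of several of these settings, and the cause of the other shifts was not tested. With the replicate number as a block the counts in the same order were 9, 0, 16, 4 and 3, against 14.1%, 0.0%, 32.9%, 3.26% and 4.57% of all genes. Same-numbered libraries deviated together with correlations of -0.069 to 0.205. With p18 at E16.5 these were 0.102, 0.061 and 0.15, each above the best pairing with another number (0.037, 0.044 and -0.086). With stage in p18mKO2- replicates 2 and 3 were above it too, at 0.103 and 0.205 against 0.071 and -0.088. With p18 at E13.5 and stage in p18mKO2+ every same-numbered pair was below it. The labels do not give the numbers as pairs, and they were not taken as such. Whether same-numbered libraries belong together was not settled. No called member changed direction in any setting. The log2(TPM + 1) scale moved the median of all genes by 0.14 with p18 at E13.5 and by 0.23 at E16.5. Phlda2, Slc22a18 and Ascl2 had too few counts to be tested.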
